A study of Mus musculus with 24 samples.

Results

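The Hedgehog pathway carries signals between cells in embryos. The ligands Sonic, Indian and Desert hedgehog (Shh, Ihh and Dhh) bind the receptor PTCH1, which otherwise holds the membrane protein SMO inactive, and HHIP binds the ligands at the cell surface and limits their range. Active SMO changes the processing of the transcription factors GLI1, GLI2 and GLI3, of which GLI1 mainly activates and GLI3 mainly represses, and Ptch1, Hhip and Gli1 are themselves classical targets of the pathway. The genes of the ligands and of many of the pathway's developmental targets are textbook targets of the Polycomb system in embryonic stem cells (ESCs), where they are held at low levels.

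The 9 genes described here are Shh, Ihh, Dhh, Ptch1, Hhip, Smo, Gli1, Gli2 and Gli3. They were taken by symbol from a table of 20633 transcripts, in which each of them has 1 row. Calibrated RNA sequencing (cRNA-seq) was carried out in 12 libraries from 2 mouse E14 ESC lines, each untreated or given 4-hydroxytamoxifen (OHT) at 800 nM over 72 h, with 3 replicates per condition. Drosophila SG4 cells were added to the ESCs before RNA extraction so that values could be scaled to cell number.

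The PRC1CKO line has the genotype Ring1a-/-; Ring1bfl/fl; Rosa26::ERT2-Cre, and OHT induces removal of a coding exon of Ring1b, so that both catalytic cores of Polycomb repressive complex 1 (PRC1) are lost. The PRC1CPM line carries the catalytic mutation Ring1aI50A/D53K and the allele Ring1b(WT->I53A/D56K)fl/fl with Rosa26::ERT2-Cre, and OHT replaces the wild-type RING1B exon by its mutant version, so that PRC1 without catalytic activity remains. Untreated PRC1CKO cells therefore already lack RING1A, and untreated PRC1CPM cells already carry mutant RING1A. Each line is 1 clone, and OHT-treated cells without floxed alleles were not analysed here, so an effect of OHT or of the recombinase itself cannot be told apart from that of the Ring1b alleles.

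The depth was 14668159 to 27016156 reads on genes in a library. Values are normalised read counts, which are reads divided by the spike-in size factor of the library. Differences are on the scale of log2(normalised read count + 1), with the standard error (SE), and come from limma with Benjamini-Hochberg adjustment over the 16940 transcripts that had at least 10 reads in at least 3 libraries. A gene was called when its adjusted p was under 0.05 and its fold change above 1.5. The number of replicates is 3 for every mean, and errors of means are SD. In such bulk samples, fewer cells that express a gene and less RNA per cell cannot be told apart.

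The labels could not be checked on the targeted genes, because most of each gene lies outside the altered exons. Rnf2, which encodes RING1B, had a normalised read count of 1525.8 ± 201 in untreated and 1546.4 ± 50.8 in OHT-treated PRC1CKO cells. Ring1, which encodes RING1A, had 227 ± 76.3 in untreated PRC1CKO cells, from which the first exons are deleted, and 162 ± 32.2 in untreated PRC1CPM cells. The pluripotency factors Pou5f1 and Nanog were abundant in all conditions, with means between 3126.4 and 5658.1. The log2 difference of Pou5f1 after OHT was -0.56 (SE 0.23, adjusted p = 0.0778) in PRC1CKO and -0.25 (SE 0.23, adjusted p = 0.63) in PRC1CPM cells.

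Promoter windows of RefSeq on GRCm38.p6, from 250 bases before to 50 bases after the start of the gene, were given for 7 of the 9 genes (Ihh, Dhh, Ptch1, Hhip, Smo, Gli2 and Gli3). The windows of Ihh and Dhh, which rose in both lines, and of Ptch1, which fell in both, are shown because PRC1 is recruited in large part to promoters rich in CpG. Capitals mark the CpG dinucleotides, and each sequence reads 5′ to 3′ on the minus strand, which is the strand of the gene. The Ihh window is chr1:74951623-74951922, the Dhh window chr15:98898491-98898790 and the Ptch1 window chr13:63565686-63565985.
Ihh: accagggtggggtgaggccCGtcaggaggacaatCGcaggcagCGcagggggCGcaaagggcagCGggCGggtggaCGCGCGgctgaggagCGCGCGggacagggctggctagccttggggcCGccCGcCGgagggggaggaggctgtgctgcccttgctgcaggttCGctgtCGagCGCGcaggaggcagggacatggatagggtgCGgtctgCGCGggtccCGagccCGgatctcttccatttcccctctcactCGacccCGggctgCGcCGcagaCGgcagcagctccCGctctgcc
Dhh: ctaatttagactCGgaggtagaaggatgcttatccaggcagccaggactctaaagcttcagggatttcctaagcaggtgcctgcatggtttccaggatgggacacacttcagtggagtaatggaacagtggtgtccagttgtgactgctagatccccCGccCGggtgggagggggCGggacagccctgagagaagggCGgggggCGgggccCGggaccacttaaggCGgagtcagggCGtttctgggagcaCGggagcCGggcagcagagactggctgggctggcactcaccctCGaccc
Ptch1: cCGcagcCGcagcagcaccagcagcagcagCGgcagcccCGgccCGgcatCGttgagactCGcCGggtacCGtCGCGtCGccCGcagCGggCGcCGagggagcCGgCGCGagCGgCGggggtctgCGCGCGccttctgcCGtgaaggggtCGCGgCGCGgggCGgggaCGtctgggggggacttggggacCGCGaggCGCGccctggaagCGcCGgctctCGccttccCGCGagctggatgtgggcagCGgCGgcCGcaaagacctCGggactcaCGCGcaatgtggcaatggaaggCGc

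The Ptch1 window held 47 CpG dinucleotides, more than 98.6% of the 32851 windows in the table, whose median was 7. The Ihh window held 30, more than 88.3% of all windows. The Dhh window held 12, the fewest of the 7 genes but more than 60.4% of all windows. Whether the CpG content bears on the response to OHT was not tested. Hhip held 30, Gli2 28, Gli3 39 and Smo 17. The core GLI binding motif GACCACCCA, searched on both strands, was found in 0 of the 7 windows and in 0.253% of all windows. The Ptch1 window starts from a RefSeq start that lies upstream of the transcript counted in the deposited table.

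After OHT treatment of PRC1CKO cells, Dhh, Ihh, Hhip and Gli3 rose and Ptch1 and Gli1 fell, whereas Gli2 and Smo did not pass the test. Of the 8 genes tested, 4 were thus called higher and 2 lower, where 16.5% of all transcripts tested were called higher and 3.09% lower. In PRC1CPM cells, Ihh and Dhh rose and Ptch1 fell, which is 2 higher and 1 lower, beside 13.1% and 1.4% of all transcripts. With replicates as a block, Hhip was also called higher and Gli1 lower in PRC1CPM cells. The median log2 difference of the 8 genes was 0.31 in PRC1CKO and 0.26 in PRC1CPM cells, and that of all transcripts tested was 0.12 and 0.10. Ihh reached the filter on reads only through OHT-treated libraries, so it had to be higher there to be tested, and Shh had too few reads to be tested.

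**Figure D1:**
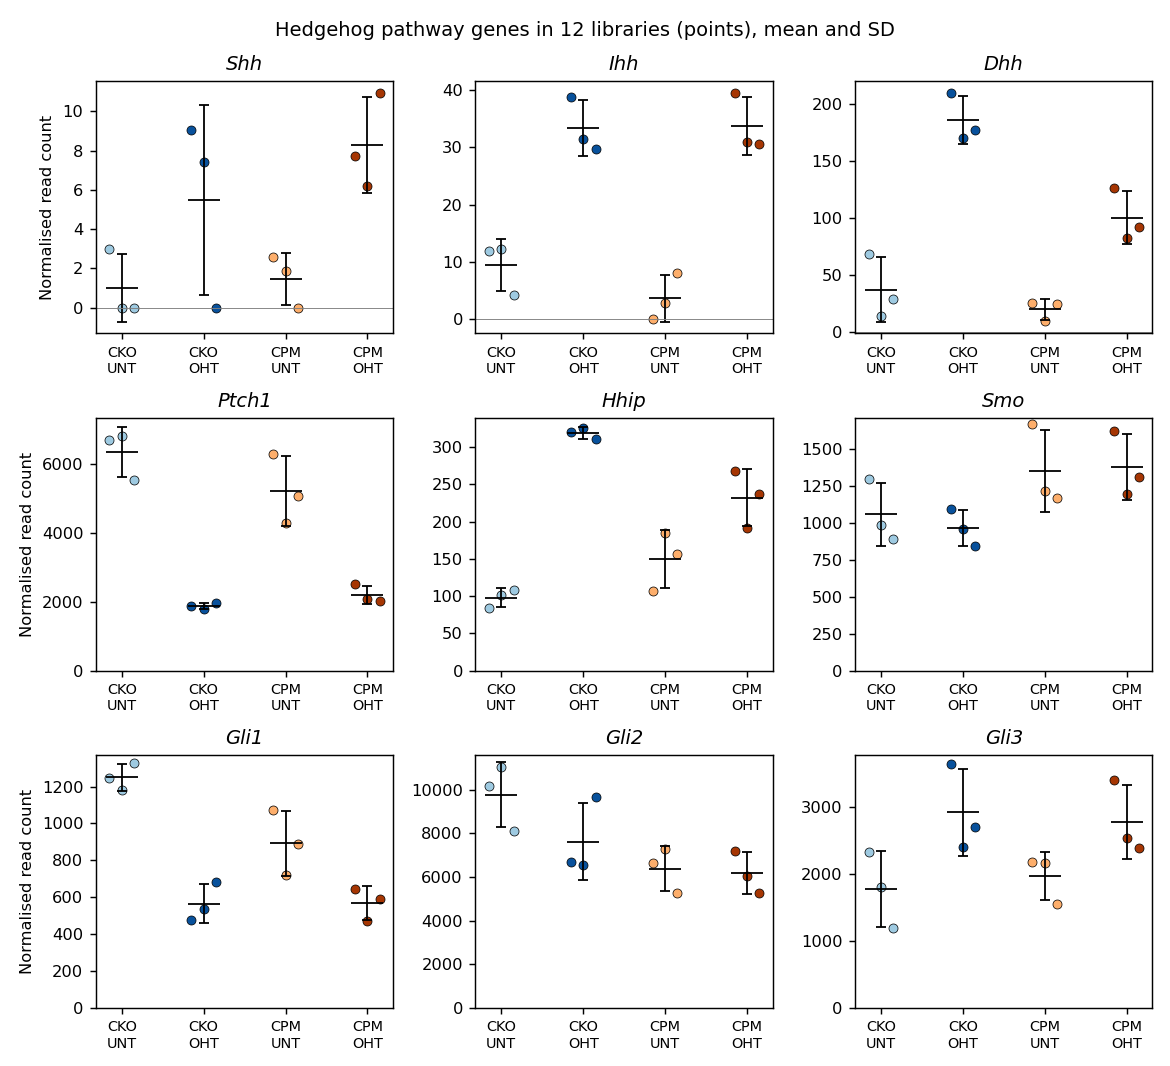
Normalised read count (linear axis) of each of the 9 genes in untreated (UNT) and OHT-treated PRC1CKO and PRC1CPM libraries. Points are libraries, and lines with bars are the mean and SD of 3 replicates. In both lines the OHT-treated points of Ihh, Dhh, Hhip and Gli3 lie above all untreated points and those of Ptch1 and Gli1 lie below them.

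Dhh, the ligand of developing testis and peripheral nerve, lies on chromosome 15 from 98893027 to 98898540. Its normalised read count was 68.5, 13.9 and 28.8 in the untreated PRC1CKO libraries and 209.7, 170.3 and 177.1 in the OHT-treated ones. In PRC1CPM cells it was 25.6, 9.4 and 24.4 before and 126.4, 82.0 and 92.0 after treatment. Treated and untreated libraries did not overlap in either line, and the untreated PRC1CKO library of replicate 1 was the highest of the untreated ones. Relative to untreated cells, Dhh rose by a log2 difference of 2.57 (SE 0.43, adjusted p = 3.67e-06) in PRC1CKO and 2.38 (SE 0.43, adjusted p = 3.07e-05) in PRC1CPM cells.

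Ihh, the ligand best known from growing cartilage and gut, lies on chromosome 1 from 74945318 to 74951651 and was expressed at a lower level. It had 8, 16 and 5 reads in the untreated PRC1CKO libraries and 43, 34 and 34 after OHT. In PRC1CPM cells it had 0, 3 and 6 reads before and 41, 40 and 28 after treatment, and the library at 0 allows up to 3 reads, or a normalised read count of 3.84. The normalised means rose from 9.49 ± 4.56 to 33.3 ± 4.88 in PRC1CKO and from 3.65 ± 4.13 to 33.7 ± 5.07 in PRC1CPM cells. The treated levels in the 2 lines were thus within their SD of each other. Ihh rose by a log2 difference of 1.82 (SE 0.60, adjusted p = 0.0229) in PRC1CKO and 3.40 (SE 0.60, adjusted p = 2.36e-05) in PRC1CPM cells. The latter was 2.54 without the untreated PRC1CPM library of replicate 1 and 4.14 without that of replicate 3, and Ihh was called in both cases. The call in PRC1CKO cells was lost with a pseudocount of 0.1 (adjusted p = 0.179). It was also lost without the untreated PRC1CKO library of replicate 3 (0.189), without the OHT-treated one of replicate 1 (0.0787) and without that of replicate 2 (0.0508).

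Shh, the ligand of notochord, floor plate and limb bud, lies on chromosome 5 from 28456840 to 28467101 and was close to the detection limit. It had 2, 0 and 0 reads in untreated and 10, 8 and 0 reads in OHT-treated PRC1CKO libraries. In PRC1CPM cells it had 2, 2 and 0 reads before and 8, 8 and 10 reads after OHT. A library without a read allows up to 3 reads, which is a normalised read count of 2.31 to 4.07 in the 4 libraries concerned. Such limits cover counting error only. The non-coding transcript 9530036O11Rik overlaps Shh on the other strand, and whether counting used the strand is not given in the sources used here.

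Ptch1, the receptor, lies on chromosome 13 from 63511533 to 63565520 and was among the most highly expressed of the 9 genes. Its normalised read count was 6695.6, 6806.9 and 5516.6 in untreated PRC1CKO libraries and 1875.7, 1793.8 and 1957.5 after OHT. It was 6279.2, 4277.6 and 5067.0 in untreated and 2502.9, 2089.1 and 2015.5 in OHT-treated PRC1CPM libraries. All 6 treated libraries lay below all 6 untreated ones. Ptch1 fell, with a log2 difference of -1.75 (SE 0.20, adjusted p = 8.79e-10) in PRC1CKO and -1.23 (SE 0.20, adjusted p = 6.89e-06) in PRC1CPM cells.

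Hhip, the decoy receptor on chromosome 8 from 79965851 to 80058008, moved in the opposite direction. It had a normalised read count of 83.4, 101.6 and 108.2 in untreated and 320.9, 325.8 and 310.6 in OHT-treated PRC1CKO libraries. In PRC1CPM cells it had 107.4, 184.7 and 157.2 before and 268.3, 191.7 and 236.6 after treatment, so the groups were close but did not overlap. Hhip rose by a log2 difference of 1.70 (SE 0.29, adjusted p = 7.33e-06) in PRC1CKO cells. In PRC1CPM cells the difference was 0.65 (SE 0.29, adjusted p = 0.153). Hhip was called there with replicates as a block (adjusted p = 0.0059) and without the genomic DNA correction.

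Smo, the transducer on chromosome 6 from 29735497 to 29761366, had a normalised mean of 1058.1 ± 213 in untreated and 966 ± 124 in OHT-treated PRC1CKO cells. In PRC1CPM cells the means were 1349.6 ± 276 and 1375.2 ± 223. For Smo the log2 difference was -0.12 (95% confidence interval -0.58 to 0.33, adjusted p = 0.811) in PRC1CKO and 0.03 (-0.42 to 0.49, adjusted p = 0.97) in PRC1CPM cells.

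Among the GLI factors, Gli1 fell and Gli3 rose in PRC1CKO cells. Gli1, on chromosome 10 from 127329882 to 127341579, had a normalised read count of 1245.3, 1180.5 and 1325.9 in untreated and 474.6, 535.9 and 680.4 in OHT-treated PRC1CKO libraries. It had 1070.2, 719.1 and 886.5 in untreated and 646.7, 467.8 and 588.2 in OHT-treated PRC1CPM libraries, which did not overlap. The log2 difference was -1.16 (SE 0.23, adjusted p = 0.000115) in PRC1CKO and -0.65 (SE 0.23, adjusted p = 0.0554) in PRC1CPM cells. In PRC1CPM cells Gli1 was called with replicates as a block (adjusted p = 6.99e-05) and with TMM scaling (log2 difference -0.75, adjusted p = 0.00302), and without the spike-in's genomic DNA correction its difference was -0.35 (adjusted p = 0.391). Gli1 is overlapped on the other strand by Arhgap9.

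Gli3, on chromosome 13 from 15463723 to 15730025, had a normalised read count of 2328.2, 1800.0 and 1199.0 in untreated and 3655.5, 2410.3 and 2702.5 in OHT-treated PRC1CKO libraries. In PRC1CPM cells it had 2183.8, 2171.3 and 1558.9 before and 3409.3, 2533.7 and 2388.0 after OHT. Treated libraries were above untreated ones in both lines, by a narrow margin. For Gli3 the log2 difference was 0.75 (SE 0.23, adjusted p = 0.0129) in PRC1CKO and 0.49 (SE 0.23, adjusted p = 0.171) in PRC1CPM cells. The PRC1CKO call was lost without the untreated library of replicate 3 (adjusted p = 0.226), without the OHT-treated library of replicate 1 (0.148) and without the genomic DNA correction (0.114), which in turn gave a call in PRC1CPM cells (log2 difference 0.79, adjusted p = 0.0162).

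Gli2, on chromosome 1 from 118834061 to 119053619, had the most reads of the 9 genes. Its normalised means were 9780.8 ± 1501.7 in untreated and 7628.6 ± 1757.6 in OHT-treated PRC1CKO cells, and 6389.8 ± 1017.1 and 6174.9 ± 951 in PRC1CPM cells. The log2 difference was -0.37 (95% confidence interval -0.78 to 0.04, adjusted p = 0.237) in PRC1CKO and -0.05 (-0.46 to 0.36, adjusted p = 0.953) in PRC1CPM cells.

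**Figure D2:**
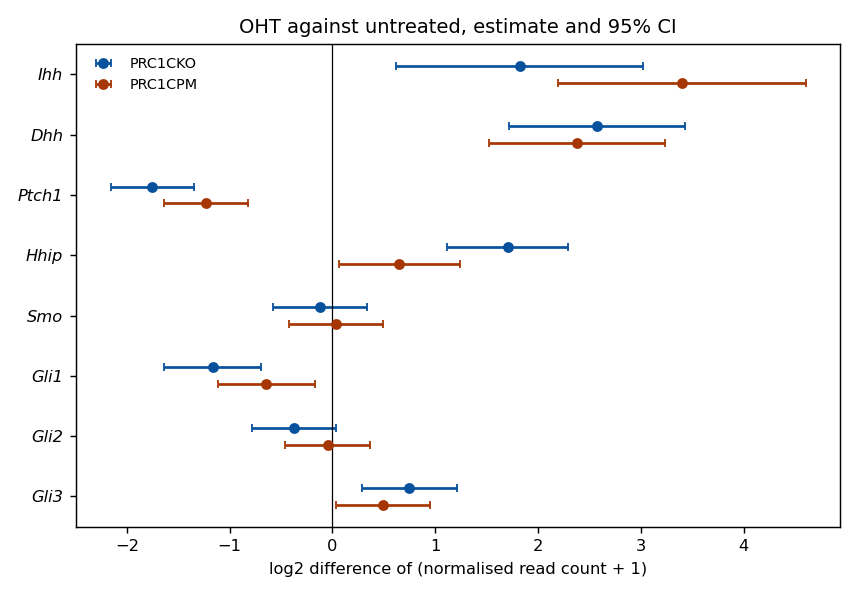
Log2 difference between OHT-treated and untreated cells (linear axis of log2 values) for the 8 genes tested, in PRC1CKO and PRC1CPM cells. Points are limma estimates from 3 libraries per condition and bars are 95% confidence intervals. The intervals of Ihh, Dhh, Hhip and Gli3 lie above 0 and those of Ptch1 and Gli1 below 0 in both lines, and those of Smo and Gli2 include 0.

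In PRC1CKO cells 6 of the 8 genes had treated and untreated libraries that did not overlap, as did 30.6% of all transcripts tested. The same 6 genes (Ihh, Dhh, Hhip and Gli3 higher, Ptch1 and Gli1 lower) did not overlap in PRC1CPM cells, where the share of all transcripts was 22.4%. Ihh had to be higher after OHT to pass the filter on reads, so its place in these counts supports no direction. The direction of these 6 genes in each line was the same with the deposited scale, with TMM scaling and without the genomic DNA correction. These scales differ in the median of all transcripts, which was 0.12 in PRC1CKO and 0.10 in PRC1CPM cells with the deposited scale. It was -0.0019 and -0.0072 with TMM, and -0.037 and 0.39 without the correction. Relative to the median of all transcripts, Ptch1 differed by -1.87 and -1.33, Gli1 by -1.28 and -0.74, and Dhh by 2.46 and 2.28 in PRC1CKO and PRC1CPM cells.

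To set loss of catalysis beside loss of the whole complex, the OHT-treated lines were compared. The lines also differ in clone and Ring1a allele, which this comparison does not remove. Of the 8 genes, 0 were called, beside 1.25% of all transcripts called higher and 0.218% lower in PRC1CPM than in PRC1CKO cells. The edgeR and DESeq2 fits also called 0 of them, and 2 genes had an unadjusted p under 0.05. These were Dhh, with a log2 difference of -0.90 (SE 0.43, adjusted p = 0.409), and Smo, with 0.51 (SE 0.23, adjusted p = 0.364). The OHT-treated libraries did not overlap between the lines for Ptch1 and Smo, which were higher in PRC1CPM cells, and for Dhh and Hhip, which were lower, beside 16.3% of all transcripts. With replicates as a block, Dhh was called lower in OHT-treated PRC1CPM cells (adjusted p = 0.0189), and Smo passed the p threshold (adjusted p = 0.00381) but not the fold threshold. Between the untreated lines the log2 difference was already -0.71 (SE 0.43) for Dhh and 0.35 (SE 0.23) for Smo, neither called. Their interactions were -0.19 (SE 0.60) and 0.15 (SE 0.32). An effect of catalysis on these genes cannot be told apart from the difference between the lines.

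Before treatment, 0 of the 8 genes were called between the lines, beside 2.21% of all transcripts called higher and 0.478% lower in PRC1CPM cells. The edgeR and DESeq2 fits also called 0, TMM scaling called 2 lower (Gli1, adjusted p = 0.0241, and Gli2, adjusted p = 0.0308), and without the genomic DNA correction 1 was called lower (Gli2, adjusted p = 0.0363). With the deposited scale 3 genes (Ihh, Gli1 and Gli2) had an unadjusted p under 0.05. Gli2 was lower by a log2 difference of -0.61 (SE 0.20, adjusted p = 0.0892) and Gli1 by -0.50 (SE 0.23, adjusted p = 0.303) in untreated PRC1CPM cells. Their libraries did not overlap between the lines, as for 11.8% of all transcripts. With replicates as a block, Gli2 (adjusted p = 8.04e-05) and Ihh (log2 difference -1.56, adjusted p = 0.0169) were called lower.

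The interaction, which tests whether the response to OHT differed between the lines, was significant for 0 of the 8 genes and for 0.0236% of all transcripts. The edgeR and DESeq2 fits gave 0 as well, and 1 gene had an unadjusted p under 0.05. This was Hhip, whose response was smaller in PRC1CPM cells by a log2 difference of -1.05 (SE 0.41, 95% confidence interval -1.89 to -0.22, limma's adjusted p = 1). With replicates as a block Hhip was called (adjusted p = 0.0175), although in PRC1CKO cells 1 of the 3 pairs of replicates fell short of the correlation of 0.1 asked of pairs. The interaction was 1.58 for Ihh (95% confidence interval -0.13 to 3.28, and 0.72 to 2.32 with each library left out) and 0.52 for Ptch1 (-0.05 to 1.10). For Gli1 it was 0.52 (-0.15 to 1.19), and for the other genes it lay between -0.25 and 0.32.

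**Figure D3:**
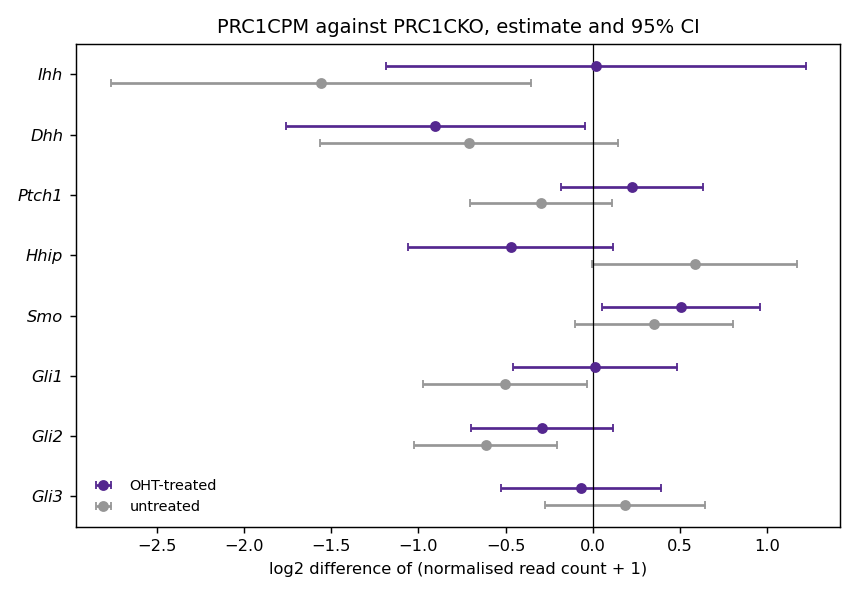
Log2 difference of PRC1CPM against PRC1CKO cells (linear axis of log2 values) for the 8 genes tested, after OHT and before treatment. Points are limma estimates from 3 libraries per condition and bars are 95% confidence intervals. The intervals of Dhh (below) and Smo (above) exclude 0 after OHT, and those of Ihh, Gli1 and Gli2 lie below 0 before treatment, with 0 genes called in either comparison.

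Per kilobase of gene span, the order of levels changed with OHT treatment. In untreated PRC1CKO cells Ptch1 was first with a normalised read count of 117 ± 13.2 per kb and Gli1 second with 107 ± 6.23, which did not differ beyond their SD. Gli2 (44.5 ± 6.84 per kb) and Smo (40.9 ± 8.22) followed, then Dhh (6.72 ± 5.13) and Gli3 (6.67 ± 2.12), then Ihh (1.498 ± 0.72) and Hhip (1.06 ± 0.14), and neighbours within each of these pairs did not differ beyond their SD. Shh was last with 0.0968 ± 0.168 per kb. In OHT-treated PRC1CKO cells Gli1 (48.2 ± 9.03 per kb), Smo (37.3 ± 4.81), Gli2 (34.7 ± 8.005), Ptch1 (34.7 ± 1.52) and Dhh (33.7 ± 3.82) lay close together. In OHT-treated PRC1CPM cells Ptch1 had 40.8 ± 4.87 and Dhh 18.2 ± 4.23 per kb. Per kilobase of RefSeq exons the order differs, with Gli2 first in every condition. In OHT-treated PRC1CKO cells it gave Dhh a mean of 43.8 and Ptch1 one of 257 per kb of exon, so their closeness per kb of span was lost. The authors aligned intronic reads, but the sources used here do not state whether the counts per gene include them.

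The other genes of the pathway were described from a list of 63 genes sorted by role, of which 59 were in the table and 58 were tested. In PRC1CKO cells 16 of the 58 were called higher and 1 lower, and in PRC1CPM cells 15 higher and 1 lower. Among all transcripts tested the shares were 16.5% higher and 3.09% lower in PRC1CKO and 13.1% higher and 1.4% lower in PRC1CPM cells. Among those called higher in each line were 7 GLI targets that reached the filter on reads only through OHT-treated libraries, so the counts support no direction of the list.

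Of 6 genes for maturation and release of the ligands, 3 rose in PRC1CKO and 4 in PRC1CPM cells, where 16.5% and 13.1% of all transcripts were called higher. The count in PRC1CKO cells was 5 with replicates as a block and 2 without the genomic DNA correction. Disp2, a relative of the ligand transporter Disp1, had 43.3 ± 3.84 normalised reads before and 143 ± 18.2 after OHT in PRC1CKO and 49.5 ± 12.8 and 150 ± 46.3 in PRC1CPM cells. Scube1, of the family of secreted proteins that help release the ligands, rose by a log2 difference of 1.10 (SE 0.25) and 1.00 (SE 0.25) in the 2 lines. Scube2 rose by 1.62 (SE 0.30, adjusted p = 4.07e-05) in PRC1CPM cells, and its difference was 0.69 (SE 0.30, adjusted p = 0.104) in PRC1CKO cells. Its untreated mean was lower in PRC1CPM (106 ± 18.9) than in PRC1CKO cells (208 ± 28.9). After OHT the means were 346 ± 143 and 337 ± 63.9. Scube3 was called in PRC1CPM cells (0.70, adjusted p = 0.0418, with 0.65 and adjusted p = 0.0509 in PRC1CKO cells), and Hhat, which adds palmitate to the ligands, in PRC1CKO cells (0.75, adjusted p = 0.04, with 0.54 and adjusted p = 0.229 in PRC1CPM cells). Disp1, with the highest level of these 6 genes, was not called in either line.

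Of 6 receptors and co-receptors, 1 rose in PRC1CKO and 0 in PRC1CPM cells, which in PRC1CKO cells is near the share of all transcripts called higher (16.5%, and 13.1% in PRC1CPM cells). This was Lrp2, a co-receptor for Shh, with a log2 difference of 0.76 (SE 0.21, adjusted p = 0.00557) in PRC1CKO and 0.24 (SE 0.21, adjusted p = 0.621) in PRC1CPM cells. The count in PRC1CKO cells was 2 of the 6 with replicates as a block and 0 without the genomic DNA correction. Gpc3, the glypican with the highest level of this group, had 0.15 and 0.08 (both SE 0.22).

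Of 17 tested genes that relay the signal to the GLI factors and 11 genes of the cilium, in which the relay takes place, 0 were called in either line, beside 16.5% of all transcripts called higher and 3.09% lower in PRC1CKO and 13.1% and 1.4% in PRC1CPM cells. The median log2 difference of the relay genes was 0.0099 in PRC1CKO and 0.0037 in PRC1CPM cells, and that of the cilium genes was -0.13 and -0.07, where the median of all transcripts was 0.12 and 0.10. Csnk1a1, a kinase of GLI proteins with the highest level of the relay genes, had log2 differences of -0.34 and -0.27 (both SE 0.21). Dync2h1, a motor of transport within the cilium, had 0.46 and 0.30 (both SE 0.22). With replicates as a block 1 cilium gene was called lower in each line. With TMM scaling 1 relay gene and 1 cilium gene were called lower in PRC1CKO cells and 1 cilium gene in PRC1CPM cells. Without the genomic DNA correction 1 relay gene was called higher in PRC1CPM cells and 1 cilium gene lower in PRC1CKO cells, and the median of the cilium genes in PRC1CPM cells turned to 0.23. The medians of the relay genes were -0.11 and -0.10 with TMM and -0.14 and 0.30 without the correction.

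Of 18 tested GLI target genes, 12 rose and 1 fell in PRC1CKO cells, beside 16.5% and 3.09% of all transcripts, and 11 rose and 1 fell in PRC1CPM cells, beside 13.1% and 1.4%. In PRC1CKO cells 14 were called higher with replicates as a block, 11 with DESeq2 and 10 without the genomic DNA correction. In PRC1CPM cells these counts were 13, 9 and 14. Of the raised genes, 7 (Foxf2, Foxc2, Nkx2-2, Nkx6-1, Olig2, Foxa2 and Hand2) reached the filter on reads only through OHT-treated libraries. They could be tested because they were higher there, so the count describes these genes and supports no direction of the list. The raised genes were mostly developmental transcription factors with few reads in untreated cells, and several are themselves textbook targets of Polycomb. Nkx6-1 and Olig2, which pattern the ventral neural tube, were at 2.72 ± 2.56 and 1.13 ± 1.95 normalised reads in untreated PRC1CKO cells and rose to 55.6 ± 9.91 and 33.2 ± 9.09. Foxf1 and Foxf2, targets in the gut mesenchyme, rose by a log2 difference of 3.14 (SE 0.63) and 4.87 (SE 0.64) in PRC1CKO and by 4.02 (SE 0.63) and 3.90 (SE 0.64) in PRC1CPM cells. The untreated PRC1CPM libraries of Foxf1 lay far apart, at 0, 1.88 and 35.8, so its larger fitted difference in that line is uncertain. Its normalised means went from 11.3 ± 5.67 to 103 ± 26.4 in PRC1CKO and from 12.6 ± 20.1 to 78.3 ± 24.2 in PRC1CPM cells. Nkx2-2, Nkx2-9, Foxa2, Foxc2, Hand2 and Snai1 were also called higher in both lines. Hand2 had 0 reads in the untreated PRC1CKO libraries and a normalised mean of 30.3 ± 6.62 after OHT, at least 31.9-fold higher when 3 reads over the group are taken as the floor.

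The cell cycle gene Ccnd2 rose from 129 ± 78.5 to 725 ± 145 in PRC1CKO and from 195 ± 86.8 to 593 ± 199 in PRC1CPM cells. Bmp4, a signal of the TGF-beta family, was called in PRC1CKO cells, with a log2 difference of 0.77 (SE 0.27, adjusted p = 0.0394), beside 0.67 (SE 0.27, adjusted p = 0.1) in PRC1CPM cells, and its treated and untreated PRC1CKO libraries overlapped. Mycn, which drives proliferation, was the target that fell, by a log2 difference of -1.21 (SE 0.22, adjusted p = 2.91e-05) in PRC1CKO and -0.85 (SE 0.22, adjusted p = 0.00472) in PRC1CPM cells, where without the genomic DNA correction 0 of the targets were called lower. Sfrp1, a WNT antagonist with the highest level of the list, had -0.10 and 0.27 (both SE 0.20).

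**Figure D4:**
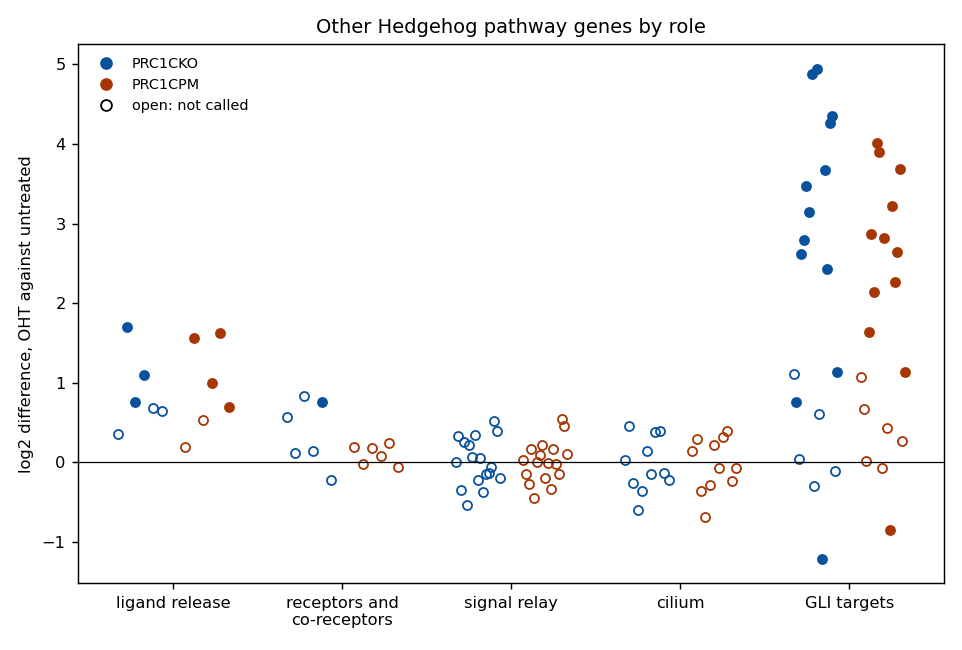
Log2 difference between OHT-treated and untreated cells (linear axis of log2 values) for the 58 other pathway genes tested, grouped by role, in PRC1CKO and PRC1CPM cells. Each point is 1 gene, filled where it was called, and Hand2, without reads in untreated PRC1CKO cells, is drawn at its fitted value. The called genes lie among the ligand release genes, the receptors and co-receptors, and the GLI targets.

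Markers of other cell types moved with the treatment, and their counts stand beside 16.5% of all transcripts called higher and 3.09% lower in PRC1CKO cells and 13.1% and 1.4% in PRC1CPM cells. Of 55 tested markers, 6 reached the filter on reads only through OHT-treated libraries, and 4 of these were among those called in each line. In PRC1CKO cells 6 of 8 tested definitive endoderm markers rose, with a summed level of 731 ± 228 before and 2721.1 ± 296 after OHT and Gata6 as the most abundant of them. Cer1 was below the filter on reads. Cxcr4 (log2 differences of 0.49 in PRC1CKO and 0.63 in PRC1CPM cells, both SE 0.29) was called in neither line. Hhex (0.48 and 0.64, both SE 0.31) was not called either. The chondrocyte list, whose cells express Ihh in cartilage, had 5 of 6 tested genes higher, from a sum of 1108.3 ± 268 to 3888.0 ± 346, with Col2a1 the most abundant and Col10a1 below the filter on reads. The list for Schwann and Sertoli cells, which express Dhh, had 5 of 8 higher, from 3600.1 ± 687 to 5928.6 ± 413, with Dmrt1 the most abundant. The notochord and floor plate list, the sites of Shh, had 4 of 8 higher, from 1948.7 ± 1028.0 to 2738.6 ± 622. Most of that sum was Ntn1, which was not called (log2 difference 0.55, SE 0.29, adjusted p = 0.213), and Noto was below the filter. The neural progenitor list, with Nes the most abundant, had 5 of 8 higher and 1 lower, from 1463.1 ± 585 to 2569.3 ± 196.

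In PRC1CPM cells, where 13.1% of all transcripts were called higher, 6 of 8 definitive endoderm markers rose, and the sum of the list went from 529 ± 40.2 to 1427.5 ± 340.2. The chondrocyte list had 3 of 6 higher (1641.0 ± 242 to 3648.0 ± 995), the list for Schwann and Sertoli cells 4 of 8 (3051.2 ± 381 to 5262.1 ± 711), the notochord and floor plate list 4 of 8 (2279.1 ± 870.1 to 2866.2 ± 1031.5) and the neural progenitor list 4 of 8 (1679.6 ± 128 to 2252.5 ± 607). Of the extraembryonic endoderm list, with Col4a1 the most abundant, 2 of 5 tested genes rose in PRC1CKO cells (9766.5 ± 3980.7 to 17289.4 ± 2394.2) and 4 of 5 in PRC1CPM cells (8343.8 ± 1005.4 to 12487.4 ± 2940.4), and Afp, Ttr, Apoa1 and Apoa4 were below the filter. Of the fibroblast list, with Col1a1 the most abundant, 1 of 6 rose and 1 fell in PRC1CKO cells (3936.8 ± 2163.6 to 4141.5 ± 462) and 0 were called in PRC1CPM cells (8192.5 ± 6298.2 to 9344.4 ± 5896.1), with Dcn and Lum below the filter. Of 9 tested ESC markers, with Tdgf1 the most abundant, 2 fell in PRC1CKO cells (80476.8 ± 17633.8 to 62076.5 ± 5030.8) and 0 in PRC1CPM cells (69128.0 ± 12283.1 to 64391.1 ± 18395.2). Foxa2 is in the lists of GLI targets, of notochord and of endoderm, Gata4 in those of endoderm and of Schwann and Sertoli cells, and Sox9 in those of Schwann and Sertoli cells and of chondrocytes, so these genes are counted more than once. The part of these changes in the levels of the Hedgehog genes was not tested.

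Of the neighbours of the 9 genes that were tested, 1 was called higher and 1 lower in each line, where 16.5% and 3.09% of all transcripts in PRC1CKO and 13.1% and 1.4% in PRC1CPM cells were called. Of the nearest gene on either side of each, 16 were tested, and Anapc10, a subunit of the anaphase-promoting complex 189 kb from Hhip, was called higher in both lines with log2 differences of 1.05 (SE 0.23) and 0.67 (SE 0.23). Inhbb, next to Gli2, was called lower in PRC1CKO cells (-0.73, SE 0.25) and Inhbe, next to Gli1, was called lower in PRC1CPM cells (-3.28, SE 0.82), although it reached the filter on reads only through the untreated PRC1CPM libraries, in which it was highest. The neighbours of Dhh (Rhebl1 and Lmbr1l), Ihh (Ccdc108 and Nhej1), Ptch1 (Fancc and 1700024I08Rik), Smo (Tspan33 and Ahcyl2), and Shh (Rbm33 and Rnf32) were not called. Neither were Mars, Tfcp2l1 and AW209491, next to Gli1, Gli2 and Gli3, and 4933412O06Rik, also next to Gli3, was not tested.

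Across the 12 libraries, the pattern of Ptch1 was most like those of 2610037D02Rik (Pearson r = 0.967), Kis2 (0.963) and Zeb1 (0.956). In PRC1CKO and PRC1CPM cells 2610037D02Rik fell by log2 differences of -2.13 and -1.76 (both SE 0.35) and Kis2 by -3.00 and -2.31 (both SE 0.35). Zeb1, a transcription factor known from epithelial to mesenchymal transition, fell by -1.45 and -1.37 (both SE 0.22). These genes were chosen for their likeness to Ptch1 in the same libraries, so their fall follows from the choice. Dhh was most like Cdh5 (0.969), Nkx2-3 (0.968) and Nhlrc1 (0.968), and Ihh most like Pcdhb3 (0.959), Lgr5 (0.945) and Hoxb3 (0.935). Hhip was most like Foxe1 (0.977), Fbln5 (0.977) and 2810459M11Rik (0.961), Gli1 most like Atf1 (0.933), Cyb5r1 (0.931) and Dtna (0.928), and Gli3 most like Snrk (0.983), Ddx10 (0.981) and Nox4 (0.980). Within the 8 genes, Ptch1 and Gli1 had a correlation of 0.926 and Ptch1 and Hhip one of -0.938. These correlations over 12 libraries describe the 4 conditions as much as single libraries, since the points share conditions and size factors.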

How the data were processed

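cRNA-seq values of 12 libraries (2 lines, untreated or OHT-treated, 3 replicates) were analysed, grouped by their labels. The matched genomic DNA (gDNA) samples have no file here. The authors removed rDNA reads with Bowtie 2, aligned the rest to mm10 and dm6 with STAR and then Bowtie 2 (to reach intronic reads), removed PCR duplicates, counted reads per gene and divided them by DESeq2 size factors from the Drosophila reads, corrected by gDNA-seq. The deposited signal, a normalised read count, is thus in spike-in units. In every library 100% of values were whole reads within a tolerance of 0.02 of a read. The deposited columns of log2 fold changes and adjusted p-values, and a list of partially derepressed genes, hold the authors' own comparisons and were not used.

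Values were fitted on the log2 scale after adding 1, in limma 3.58.1 (R 4.3.3), with 1 mean per condition over the 12 libraries, a mean-variance trend and 16940 transcripts tested. edgeR 4.0.16 and DESeq2 1.42.0 on the recovered reads were alternatives, as were TMM, no gDNA correction, a pseudocount of 0.1, no filter, replicate blocks, no trend, only the 6 libraries compared, a fold change above 2 and each library left out. Depth was 14668159 to 27016156 reads per library, and genes with few reads carry large counting error. P-values measure the spread between the replicates of 1 clone per line.

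The limma, edgeR and DESeq2 fits and limma with a replicate block were tested on simulated data for the PRC1CKO comparison with 16940 genes, of which 200 were changed. limma called 157 changed and 11 unchanged genes, edgeR 158 and 9, and limma with a block 158 and 12. DESeq2 called 159 and 21, so that 11.7% of its calls were false at a threshold of 0.05, and a call made by DESeq2 alone is less certain.

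Same-numbered libraries deviated together from their condition means in PRC1CPM cells (correlations of 0.246 to 0.438), between the treated lines (0.140 to 0.225) and between the untreated lines (0.186 to 0.377), as a hint from the data. In PRC1CKO cells 1 of 3 pairs had 0.0988, so blocked values of that line and of the interaction are less well founded.

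The members and lists were chosen with earlier results of these data known. The genes named are the 9 members, other pathway genes called in either line, the highest gene of each role and marker list, the 3 genes most like each called member and the nearest neighbours. Overlapping genes, markers below the filter, markers in more than 1 list and the tested definitive endoderm markers not called are also named. Positions are those of the deposited table on mm10. Promoters and exons are from RefSeq on GRCm38. Python 3.11.15, numpy 2.4.6, pandas 2.3.3, scipy 1.17.1 and matplotlib 3.10.9 were used.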

Additional observations from a re-analysis of the deposited data

How the results depend on the processing

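In PRC1CKO cells 6 members were called, and the counts under the alternatives ranged from 4 to 6. In PRC1CPM cells 3 were called, and 5 without the gDNA correction, 5 with the replicate block and 5 with edgeR and the block, 4 with TMM, 4 with DESeq2 and 4 with TMM and the block, with 3 to 4 when each library was left out. Between the OHT-treated lines 0 were called, and 1 with the replicate block, with edgeR and the block and with TMM and the block. Between the untreated lines 0 were called, but 2 with TMM, 1 without the gDNA correction, 2 with the replicate block, 2 with edgeR and the block and 2 with TMM and the block, and 0 to 1 with a library left out. The interaction called 0, and 1 (Hhip, adjusted p = 0.0175 in limma) with the replicate block and 1 with edgeR and the block. The other pathway genes numbered 17 in PRC1CKO cells, with 13 to 22 when each library was left out and 23 with the block, and 16 in PRC1CPM cells, with 14 to 18 when each library was left out, 19 with the block and 20 without the gDNA correction. The combined alternatives of edgeR or TMM with the block were chosen after seeing the data.

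A tally of 544 alternative values of single members covered the OHT response in each line and the interaction, not the comparisons between lines. Of these values, 505 kept their direction and their side of the threshold, 9 lost a call, 14 gained one and 16 changed sign. The sign changes in this tally concerned differences that were not called. Without the gDNA correction Gli2 in PRC1CPM cells had a log2 difference of 0.25, and the interactions of Dhh and Gli3 were 0.24 and 0.20. With TMM, without and with the block, Smo in PRC1CPM cells had -0.0734. With each library left out, Smo ranged from -0.24 to 0.0351 in PRC1CKO and from -0.0925 to 0.20 in PRC1CPM cells and Gli2 in PRC1CPM cells from -0.18 to 0.0586. The interactions ranged from -0.77 to 0.34 for Dhh, from -0.0014 to 0.32 for Smo and from -0.48 to 0.0026 for Gli3. Gli1 in PRC1CPM cells was called without untreated PRC1CKO replicate 1, untreated PRC1CPM replicate 2 or OHT-treated PRC1CPM replicate 1 (adjusted p = 0.0284, 0.0341 and 0.0447), by DESeq2 (0.0223) and with TMM (0.00302). The causes were not tested.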
